A study of Mus musculus with 9 samples.

Results

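The SLAM family receptors and the SAP adaptors are 9 genes of the 27179 counted in natural killer (NK) cells of the mouse spleen. They were taken by matching the Entrez identifiers of the count files to the symbols Slamf6, Slamf7, Cd244a, Ly9, Cd48, Cd84, Sh2d1a, Sh2d1b1 and Sh2d1b2. The matching used no measured value, but the members were chosen with earlier results of these data known. The first 6 encode cell surface proteins and the last 3 encode adaptors. The series asks about ID2, a helix-loop-helix protein, in NK cell fate and in the response to interleukin-15 (IL-15).

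The libraries, all from C57BL/6 spleen NK cells, were 3 of Id2-null cells and 3 of wild-type (WT) cells grown for 7 days in IL-15, and 1 each of the populations Immature, M1 and M2, sorted from spleen and not cultured. The labels speak of samples by running number only, so the cultured and sorted libraries were taken in listed order, which limits every comparison between them. No agent other than IL-15 is named. Not given in the sources used here are the way in which Id2 was deleted, the markers of the sort, and the age, sex and number of the mice. Whether replicates are separate mice or separate cultures is not stated, so a p-value reflects the spread among libraries alone, and this may be technical.

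SLAM receptors sit in 1 gene cluster and most of them bind a copy of themselves on a neighbouring blood cell. The exception is 2B4, the product of Cd244a, which binds CD48. The cytoplasmic tails carry immunoreceptor tyrosine-based switch motifs, short stretches around a tyrosine that recruit the SH2 domain proteins SAP (Sh2d1a) and EAT-2 (Sh2d1b1 and Sh2d1b2 in the mouse). In NK cells this pathway regulates killing and cytokine release, and it can activate or inhibit according to which adaptors are present.

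The switch motif was located by translating the coding sequence of 1 GENCODE transcript per gene (GRCm38). It occurred 4 times in Cd244a, 2 times each in Slamf6, Ly9 and Cd84, 1 time each in Slamf7 and Cd48, and 0 times in the 3 adaptors. The Cd48 match, at codon 107 of 240, lies in a protein that is anchored by a lipid and has no cytoplasmic tail, so a match alone is not a docking site. Below are the coding bases of the matches in the receptor with the most motifs (Cd244a), in the member that differed most between libraries (Slamf6) and in Slamf7, a receptor that signals with EAT-2. Capitals mark the tyrosine codon, and codons are counted from the start codon.
Cd244a, codon 266: acaataTATgaatatgtc
Cd244a, codon 325: accatgTACtctatgata
Cd244a, codon 344: acagtaTATtcagtagtc
Cd244a, codon 369: accgtgTACgaggaggtt
Slamf6, codon 295: actgtgTATgcacaagtc
Slamf6, codon 319: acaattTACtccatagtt
Slamf7, codon 302: acatttTATtccactgtg
The tyrosine codon was TAT in 4 of these 7 sites and TAC in the other 3. The sequences differed between all 7.

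Total counts ran from 4128414 in Immature to 4831831 in WT replicate 3, so a count of 0 allows up to 3 counts, or 0.577 to 0.765 CPM (counts scaled to library size, here with TMM factors). Replicate 3 stood apart in both genotypes. Its chi-square per degree of freedom against its own replicates was 28.6 and 28.3 in Id2-null cultures and 13.6 and 16.2 in WT cultures, against 5.09 and 6.14 between replicates 1 and 2. Id2 itself had 12.3, 23.9 and 8.98 CPM in Id2-null cultures, against 408, 400.2 and 374 CPM in WT cultures, so each culture followed its genotype label. Sex-linked genes also separated the genotypes. Xist, from the inactive X chromosome, averaged 781 ± 111 CPM in Id2-null cultures, against 0.662 ± 0.474 CPM in WT cultures (SD, n = 3 each). The Y-linked Ddx3y averaged 0.489 ± 0.233 CPM in Id2-null cultures, against 74.7 ± 3.49 CPM in WT cultures (SD, n = 3 each). Eif2s3y at 0.994 and Kdm5d at 0.489 CPM in Id2-null cultures, against 79.0 and 50.7 CPM in WT cultures, followed Ddx3y. All 3 sorted libraries held both kinds, with Xist at 90.3 to 127 CPM and Ddx3y at 37.0 to 46.3 CPM. Sex and genotype therefore cannot be told apart in the cultures.

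In the Id2-null against WT comparison 0 of the 7 members that passed the low-count filter were called by edgeR's quasi-likelihood test at a Benjamini-Hochberg adjusted p under 0.05, and 1, Sh2d1a, had an unadjusted p under 0.05. DESeq2 and limma voom also called 0. Over all 11022 genes tested edgeR called 3.42%, 210 higher and 167 lower, and 14.6% had an unadjusted p under 0.05. DESeq2 called 5.26% and limma voom 2.93%. Slamf6 and Sh2d1b2 did not pass the filter, and their counts are given below. The median log2 fold change of the 7 tested members was -0.12, against 0.01 over all genes tested. CPM here are scaled by TMM over all 9 libraries, and errors are SD over 3 libraries.

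**Figure D1:**
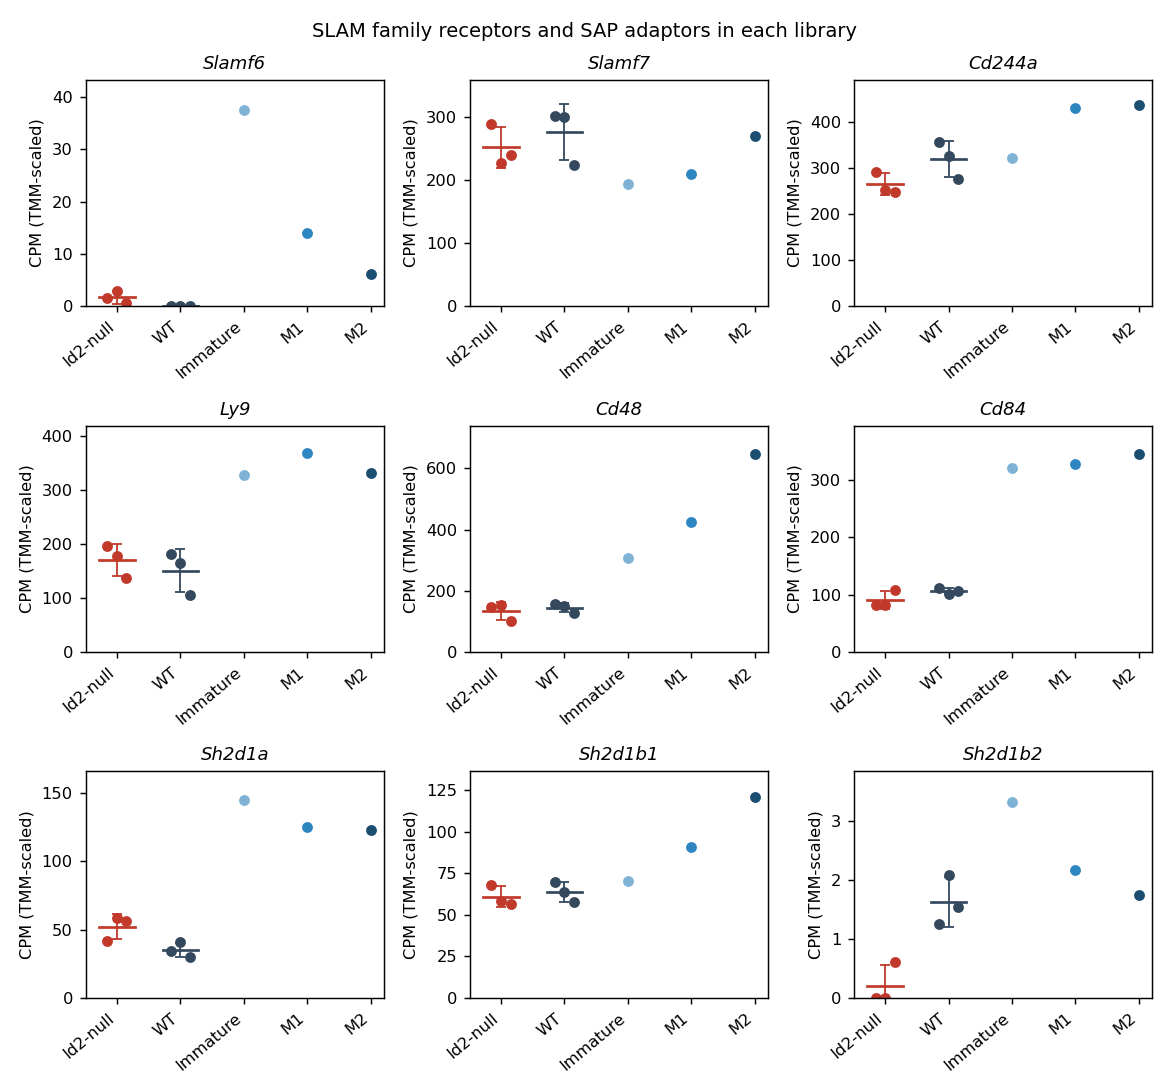
Each panel plots 1 gene in CPM (TMM-scaled, linear axis from 0) for the 3 Id2-null and 3 WT cultures and the single Immature, M1 and M2 libraries. Points are libraries, and the bar and whiskers are the mean and SD over 3 cultures. Slamf6 stands at 37.5 CPM in Immature and at 0 in all WT cultures, and Cd48 reaches 645 CPM in M2.

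Slamf6 encodes Ly108, a receptor that binds itself. It had 7, 14 and 3 counts in the Id2-null cultures and 0 counts in each of the 3 WT cultures, at 1.54, 2.97 and 0.612 CPM against 0 CPM. Every Id2-null library was above every WT library, but at levels near the limit of detection. The Id2-null mean of 1.71 CPM was 2.8 times a floor of 3 counts in each WT library (0.609 CPM on average). This ratio leaves out the spread and counting error of the Id2-null cultures. Id2-null replicate 3, with 3 counts, was itself at that floor. In a fit with no low-count filter, where the gene entered only through its Id2-null counts, edgeR gave an adjusted p of 0.0298, and in a fit of all 9 libraries 0.0712. The Id2-null mean was 4.55% of the Immature level, 22.0-fold lower than it.

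The same gene differed most among sorted cells. Slamf6 had 147 counts in Immature, 58 in M1 and 25 in M2, or 37.5 CPM (95% Poisson interval 31.7 to 44.1), 14.0 CPM (10.6 to 18.1) and 6.25 CPM (4.05 to 9.23). The 3 intervals do not overlap, and each step was lower than the one before. M2 was 6.00-fold lower than Immature (95% counting interval 3.91 to 9.57), M1 was 2.68-fold lower than Immature (1.96 to 3.70) and M2 was 2.24-fold lower than M1 (1.38 to 3.74). These populations have 1 library each, so no test between them is possible and the intervals cover counting error only.

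T cells also express Slamf6. The 8 T cell markers summed to 179 to 325.5 CPM in Id2-null cultures, against 53.1 to 207 CPM in WT cultures, ranges that overlap, and to 79.9 to 533 CPM in sorted cells with Immature highest. Cd3d, a chain of the T cell receptor complex, had 94.3, 164 and 87.7 CPM in Id2-null cultures, 19.2, 50.7 and 13.7 CPM in WT cultures, and 234, 30.9 and 34.3 CPM in Immature, M1 and M2. Its genotype difference was not called in edgeR (log2 fold change 2.06, adjusted p = 0.164). It was called with the replicate block, a fit that adds the replicate number as a term (0.00142), DESeq2 (0.0244), limma voom (0.0454) and without WT replicate 2 (0.0211). In the other settings it was not called, at edgeR adjusted p of 0.142 (library sizes alone) to 0.443 (without WT replicate 1). Cd3g, a further chain, had 109, 135 and 80.0 CPM in Id2-null cultures, against 17.9, 71.7 and 19.6 CPM in WT cultures. Cd3e lay the other way, at 9.47, 24.6 and 10.2 CPM in Id2-null cultures, against 16.9, 82.3 and 18.1 CPM in WT cultures, with overlapping ranges (log2 fold change -1.40, edgeR adjusted p = 0.541, and 0.0159 with the replicate block). Cd4 was at 0 in all 6 cultures and Cd8b1 at 0.22 CPM or less. Cd5 and Cd6 were at 0.416 CPM or less in each culture, and Cd8a averaged 1.07 CPM in both genotypes. The summed T cell values of the cultures thus came almost wholly from Cd3d, Cd3e and Cd3g. The part of T cells in the Slamf6 values was not tested, and fewer cells of a type cannot be told apart from less RNA per cell in these bulk libraries.

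The genes whose log2 CPM followed Slamf6 most closely over the 9 libraries were Cnp (Pearson r = 0.992), Thtpa (r = 0.978) and Uqcrc2 (r = 0.977) of 11218 genes compared. These points share libraries and depth, and the range of the other genes was far narrower, with Cnp at 555 to 823 counts. The likeness is a description only.

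Slamf7 encodes CRACC, which also binds itself. It had 288, 226 and 239 CPM in Id2-null cultures, against 302, 300.0 and 224 CPM in WT cultures. The ranges overlapped almost wholly, and the log2 fold change was -0.13 (95% interval -0.48 to 0.23, edgeR adjusted p = 0.789). In sorted cells Slamf7 had 193, 209.5 and 269 CPM in Immature, M1 and M2, so that M2 was 1.39 times Immature (1.27 to 1.53).

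Cd244a encodes 2B4, the receptor for CD48. It had 293, 254 and 249 CPM in Id2-null cultures, against 356, 326 and 277 CPM in WT cultures. Id2-null replicate 1 lay within the WT range and the other 2 below it. The log2 fold change was -0.27 (-0.57 to 0.04, edgeR adjusted p = 0.419). In sorted cells it had 323, 431 and 438 CPM in Immature, M1 and M2. M1 was 1.33 times Immature (1.24 to 1.44), and M2 was 1.02 times M1 (0.951 to 1.09), within counting error.

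Ly9 encodes CD229, a self-binding receptor with a duplicated extracellular part. It had 196, 177.5 and 137 CPM in Id2-null cultures, against 181, 165 and 106 CPM in WT cultures. The lowest value of each genotype was its replicate 3, and the ranges overlapped. Its log2 fold change was 0.18 (-0.31 to 0.68, edgeR adjusted p = 0.785). Immature, M1 and M2 had 328, 367 and 332 CPM, with M2 at 1.01 times Immature (0.936 to 1.09).

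Cd84 encodes another self-binding receptor. It had 82.15, 81.5 and 109 CPM in Id2-null cultures, against 112, 102 and 107 CPM in WT cultures. Only Id2-null replicate 3 reached the WT range, and the log2 fold change was -0.23 (-0.55 to 0.09, edgeR adjusted p = 0.537). The 3 sorted libraries lay between 320.4 and 346 CPM, with M2 at 1.08 times Immature (0.999 to 1.17).

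CD48, the ligand of 2B4, is held on the membrane by a glycolipid and is found on most blood cells. Cd48 had 147, 154 and 101 CPM in Id2-null cultures, against 157, 150.1 and 129 CPM in WT cultures. The ranges overlapped, with replicate 3 lowest in both genotypes. For Cd48 the log2 fold change was -0.12 (-0.51 to 0.28, edgeR adjusted p = 0.827). Among sorted cells it had 308 CPM in Immature (291 to 326), 426 CPM in M1 (407 to 447) and 645 CPM in M2 (621 to 671). The intervals were apart at each step. M2 was 2.09 times Immature (1.96 to 2.24), a value that was below 2-fold when libraries were scaled by total counts alone.

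Myeloid, B and T cells also carry CD48. The 8 myeloid markers summed to 1154, 1341 and 1752 CPM in Immature, M1 and M2, higher at each step like Cd48. Itgax, which NK cells express too, made up 961, 1131 and 836 CPM of these sums. It was the larger part in Immature and M1 but not in M2. Lyz2, a lysozyme of macrophages and neutrophils, had 56.9, 60.1 and 231 CPM in Immature, M1 and M2 and 0 counts in all 6 cultures. The 8 B cell markers summed to 62.75, 40.8 and 103 CPM in Immature, M1 and M2, lowest in M1, and to at most 1.76 CPM in cultures. Cd22 made up 38.0, 10.9 and 11.5 CPM of the sorted sums. Every other B cell marker was highest in M2, like Cd48, though Pax5 barely so and at few counts. The T cell markers, summed to 533, 79.9 and 137 CPM, were highest in Immature, where Cd48 was lowest. Most of the Immature sum came from Cd3d, Cd3e and Cd3g, at 234, 109 and 159 CPM. Of the other T cell markers, Cd4, Cd8a, Cd8b1 and Cd6 were highest in M2, and Cd5 in Immature. The part of these cell types in the Cd48 values was not tested.

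Past a 2-fold threshold, with at least 5 CPM in the higher library, 8 members could be compared among sorted cells, and Sh2d1b2 could not. For M1 over Immature 1 of 8 passed, Slamf6, against 6.18% of all genes compared. For M2 over M1 it was again Slamf6 alone, against 5.96%. For M2 over Immature 2 of 8 passed, Cd48 higher and Slamf6 lower, against 12.3%.

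**Figure D2:**
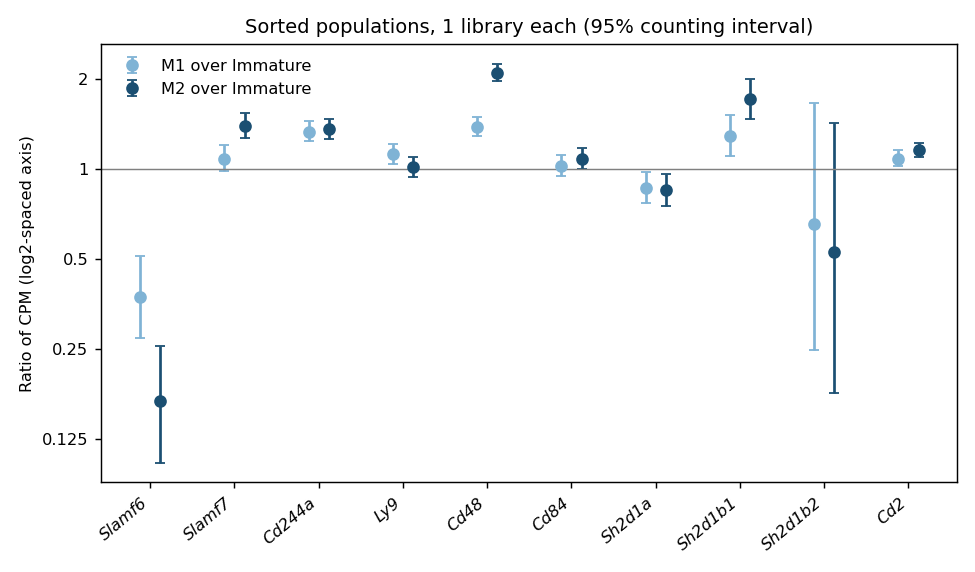
Ratios of CPM for M1 over Immature (light) and M2 over Immature (dark) on a log2-spaced axis, with 95% counting intervals for 1 library per population. Slamf6 lies at 0.373 and 0.167, Cd48 at 1.38 and 2.09, and the interval of Sh2d1b2 spans 1.

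CD2, an adhesion receptor of the wider family, binds CD48 in the mouse. Cd2 had 212, 232 and 155 CPM in Id2-null cultures, against 76.7, 105 and 71.5 CPM in WT cultures. The lowest Id2-null library was above the highest WT library. Cd2 rose in Id2-null cultures, with a log2 fold change of 1.25 (SE 0.20, 0.80 to 1.70, edgeR adjusted p = 0.0127). The call was lost without Id2-null replicate 1 (adjusted p = 0.0647), without Id2-null replicate 2 (0.0546) and without WT replicate 1 (0.0894). It was kept without replicate 3 of both genotypes (6.17e-07), and over all alternatives the log2 fold change was 1.13 to 1.43. T cells also express Cd2, and the part of the T cell markers given above for Slamf6 in this difference was not tested.

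The remaining relatives were close to absent. Slamf1 had at most 3 counts in any library. Slamf8 and Slamf9, receptors of myeloid cells, had 0 counts in all 6 cultures. In Immature, M1 and M2, Slamf8 had 3, 0 and 12 counts and Slamf9 had 1, 1 and 4. The M2 library, where both were highest, was also the one with the most Lyz2.

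SAP, the product of Sh2d1a, binds switch motifs and couples them to the kinase FYN, and its loss in people causes X-linked lymphoproliferative disease. Sh2d1a had 189, 276 and 274 counts in Id2-null cultures, against 163, 197 and 157 counts in WT cultures. On the scaled level that was 41.6, 58.45 and 55.9 CPM against 34.0, 41.0 and 30.2 CPM. All 3 Id2-null libraries were above all 3 WT libraries, by a narrow margin between Id2-null replicate 1 and WT replicate 2. The means were 52.0 ± 9.07 CPM in Id2-null cultures, against 35.0 ± 5.465 CPM in WT cultures (SD, n = 3 each). The log2 fold change was 0.57 (SE 0.18, 0.17 to 0.98), and it missed the threshold over all genes (edgeR adjusted p = 0.158, unadjusted p = 0.0116). Across alternatives the adjusted p was 0.0545 to 0.462 with the same sign each time, the lowest with the replicate block. Sh2d1a is X-linked (chromosome X, 42502565 to 42522097, GRCm38), and the cultures differed in Xist as given above. T cells also express Sh2d1a, and their markers are given above for Slamf6. The part of sex or of T cells in this difference was not tested.

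Of the 7 tested members only Sh2d1a had ranges that did not overlap between Id2-null and WT cultures, against 20.4% of all genes tested. Of the 2 members below the filter, Slamf6 was higher and Sh2d1b2 lower without overlap. The share of genes below the filter without overlap was not counted, so these 2 have no such value beside them.

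EAT-2A, the product of Sh2d1b1, is a SAP relative of NK and myeloid cells that acts through phospholipase C gamma. Sh2d1b1 had 67.8, 58.45 and 56.3 CPM in Id2-null cultures, against 69.8, 63.4 and 57.9 CPM in WT cultures. The ranges overlapped almost wholly. The log2 fold change was -0.06 (-0.36 to 0.23, edgeR adjusted p = 0.889). Immature, M1 and M2 had 70.4, 90.75 and 120.5 CPM, so that M2 was 1.71 times Immature (1.47 to 1.99). Sh2d1a ran the other way there, at 145, 125 and 123 CPM, with M2 at 0.849 times Immature (0.751 to 0.960).

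Sh2d1b2 encodes EAT-2B, a close copy whose gene lies beside Sh2d1b1 on chromosome 1 (170232871 to 170251587, with Sh2d1b1 at 170277318 to 170286769, GRCm38). It had 0, 0 and 3 counts in Id2-null cultures, against 6, 10 and 8 counts in WT cultures. Sorted Immature, M1 and M2 cells had 13, 9 and 7 counts. Every Id2-null library was below every WT library. As it did not pass the filter it was tested only without it (edgeR adjusted p = 0.165) and with all 9 libraries (0.196), and was called in neither.

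The split between the EAT-2 genes is uncertain, since their coding sequences were identical at 359 of 396 aligned bases (90.7%) and shared 130 of 372 windows of 25 bases and 55 of 297 windows of 100 bases. The labels and headers do not say how reads with several matches were treated. The deposited gene length of Sh2d1b2 was 399 bases, about its coding part alone, against 1433 bases for Sh2d1b1. The stretch of coding bases 313 to 342 is shown because it separates the copies best, with 11 mismatches in 30 bases, in capitals (GENCODE transcripts, GRCm38).
Sh2d1b1: AAcCtAtgCcAaAgagGgagaagaAtgGaG
Sh2d1b2: GGcTtCtgTcCaGgagCgagaagaCtgAaC

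Of the EAT-2 counts Sh2d1b2 took 0 of 308, 0 of 276 and 3 of 279 in Id2-null cultures. The zeros allow up to 0.974% and 1.09%, and the third library had 1.08% (95% Clopper-Pearson interval 0.222 to 3.11%). In WT cultures it took 1.76% (0.648 to 3.79%), 3.17% (1.53 to 5.76%) and 2.59% (1.12 to 5.04%). The Clopper-Pearson intervals of Id2-null replicates 1 and 2, up to 1.19% and 1.33%, lay below that of WT replicate 2. All other pairs between the genotypes overlapped. The mean shares were 0.36% ± 0.624 and 2.51% ± 0.709 in Id2-null and WT cultures (SD, n = 3 each). In Immature, M1 and M2 the share was 4.5%, 2.34% and 1.43%.

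Per length, SAP and EAT-2 transcripts can be set side by side as RPKM (CPM divided by gene length in kilobases). SAP made up 51.8, 63.6 and 62.6% of the summed RPKM of the 3 adaptors in Id2-null cultures, against 44.4, 50.3 and 45.4% in WT cultures. The lowest Id2-null share was above the highest WT share. Means were 59.3% ± 6.54 in Id2-null and 46.7% ± 3.16 in WT cultures. In Immature, M1 and M2 SAP took 75.5, 68.9 and 62.9%, a lower share at each step. The RPKM ratio of Sh2d1a to Sh2d1b1 was 1.52 ± 0.39 in Id2-null and 0.965 ± 0.147 in WT cultures (SD, n = 3 each), and 3.60, 2.41 and 1.79 in Immature, M1 and M2.

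**Figure D3:**
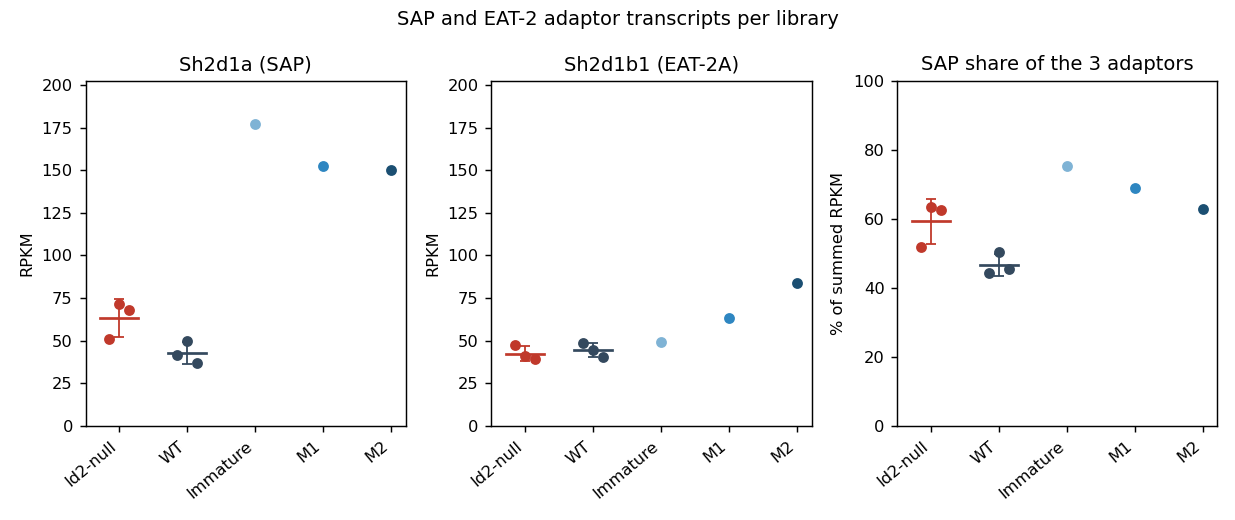
RPKM of Sh2d1a and Sh2d1b1 on the same linear axis, and the percent of the summed RPKM of the 3 adaptors that came from Sh2d1a, for each library. Points are libraries, and bars with whiskers are mean and SD over 3 cultures. The SAP share lies at 51.8 to 63.6% in Id2-null and 44.4 to 50.3% in WT cultures.

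Downstream, a list of 16 kinases, phosphatases and adaptors that act with SAP and EAT-2 was read from the same fit. In edgeR 0 of 16 were called at an adjusted p under 0.05, against 3.42% of all genes tested. An unadjusted p under 0.05 was found in 7 of 16, against 14.6%. Their median log2 fold change was -0.02. Under the replicate block 3 of 16 were called, against 7.58% of all genes. DESeq2 called 1 of 16, against 5.26%, and limma voom 0, against 2.93%. Lck, a SRC family kinase and the most abundant of the list, had 755, 767.5 and 603 CPM in Id2-null cultures, against 527, 567 and 512 CPM in WT cultures. Its ranges were apart, with a log2 fold change of 0.41 (0.11 to 0.71, edgeR adjusted p = 0.172). Fyn, the kinase that SAP recruits, averaged 442 ± 82.9 CPM in Id2-null cultures, against 331 ± 57.1 CPM in WT cultures (SD, n = 3 each), with overlapping ranges. Its log2 fold change was 0.42 (0.01 to 0.83, edgeR adjusted p = 0.330), and with the replicate block the adjusted p was 0.0385.

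Plcg1, chosen after its values were seen, encodes phospholipase C gamma 1. It had 2, 11 and 4 counts in Id2-null cultures, against 28, 32 and 24 counts in WT cultures. All Id2-null libraries were below all WT libraries at low counts. The log2 fold change was -2.22 (SE 0.52, -3.40 to -1.04) with an edgeR adjusted p of 0.0597. It passed with DESeq2 (0.0121), with no filter (0.0278), with the replicate block (0.0178), without Id2-null replicate 2 (0.0347) and without replicate 3 of both genotypes (0.00335). It did not pass with library sizes alone (0.0536), limma voom (0.0592) or all 9 libraries (0.0557). Nor did it pass without any other single library (edgeR adjusted p 0.0511 to 0.226). Its size rested on single libraries, with a log2 fold change of -3.11 without Id2-null replicate 2 and -1.84 without Id2-null replicate 1. Plcg2, the much more abundant paralog, had 272, 229 and 171 CPM in Id2-null cultures, against 288, 275 and 228 CPM in WT cultures. Those ranges overlapped, with a log2 fold change of -0.23 (edgeR adjusted p = 0.638). Arhgef7, an exchange factor for RAC, was the third gene called with the block (adjusted p = 0.0325). It averaged 79.3 ± 5.93 CPM in Id2-null cultures, against 108 ± 7.56 CPM in WT cultures (SD, n = 3 each), with an edgeR adjusted p of 0.0948 without the block.

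**Figure D4:**
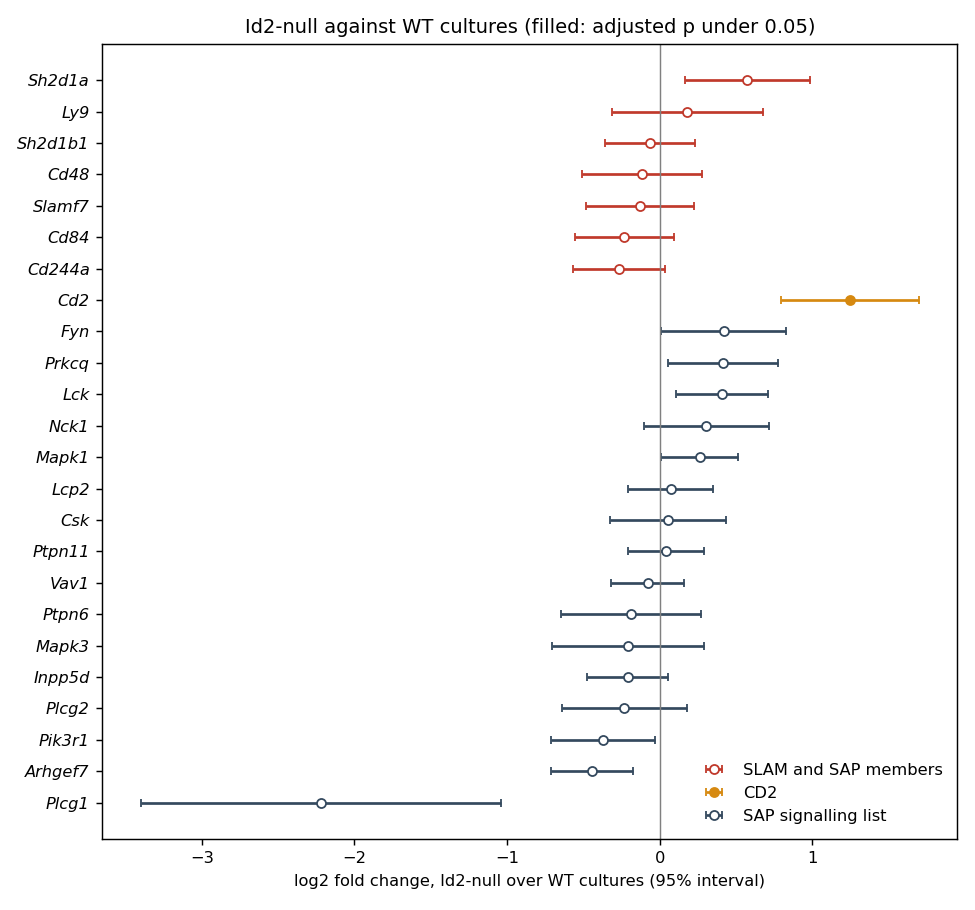
Log2 fold change, Id2-null over WT cultures, with 95% intervals from edgeR for the 7 tested members (red), Cd2 (orange) and the 16 genes that act with SAP and EAT-2 (blue). Filled points had an adjusted p under 0.05, which Cd2 alone did at 1.25. The interval of Sh2d1a is 0.17 to 0.98.

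Set against the sorted libraries, 6 of 9 members were lower in all 3 WT cultures than in all 3 sorted libraries. They were Slamf6, Ly9, Cd48, Cd84, Sh2d1a and Sh2d1b1. The same held for 35.3% of all genes with at least 5 CPM in the highest of these libraries, a minimum that Sh2d1b2 did not reach. No member was higher in all WT cultures, against 31.3% of the genes with that minimum, and Slamf7, Cd244a and Sh2d1b2 overlapped. By means, WT cultures had 35.0 CPM of Sh2d1a and sorted libraries 131 CPM, 3.74 times as much. Sorted libraries held 3.16 times the WT culture mean for Cd48, 3.10 times for Cd84, 2.27 times for Ly9 and 1.47 times for Sh2d1b1. Slamf7 went the other way, with 275 CPM in WT cultures and 224 CPM in sorted libraries. Cd2 had 84.3 CPM in WT cultures, against 559 CPM in sorted libraries. In sorted libraries Slamf6 was at 61.6 times (Immature) and 10.3 times (M2) the floor of 3 counts per WT culture. These ratios leave out the counting error of the sorted libraries. The sorted libraries are 3 populations and not replicates, and culture and sort cannot be told apart. WT cultures and sorted libraries also differed in Xist and Ddx3y, as given above, and the part of sex was not tested. The 8 NK cell markers were also lower, at 5918 to 6348 CPM summed in WT cultures and 13360 to 17000 CPM in sorted libraries. Summed T cell markers overlapped, at 53.1 to 207 CPM in WT cultures and 79.9 to 533 CPM in sorted libraries. Summed markers of the other cell types were lower in WT cultures. The 8 myeloid markers summed to 363 to 592.5 CPM in WT cultures and 1154 to 1752 CPM in sorted libraries. The 8 B cell markers summed to 0.624 to 1.25 CPM in WT cultures and 40.8 to 103 CPM in sorted libraries, and the 4 platelet markers to 0.385 to 1.04 CPM in WT cultures and 10.5 to 25.3 CPM in sorted libraries. Their part in the member values was not tested.

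Id2-null cultures were below all sorted libraries for 8 of 9 members, the exception being Slamf7. The same held for 32.9% of all genes with at least 5 CPM in the highest of these libraries, a minimum that Sh2d1b2 did not reach. Cd244a, at 249 to 293 CPM in Id2-null cultures, lay under the lowest sorted library at 323 CPM, whereas WT cultures at 277 to 356 CPM overlapped it. Sh2d1a in Id2-null cultures was at 0.397 of the sorted mean.

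The order of levels per length was led by Cd48 in every group. It had 117 ± 25.2 RPKM in Id2-null and 127 ± 12.95 RPKM in WT cultures, and 269.8, 373 and 565 RPKM in Immature, M1 and M2. In Id2-null cultures Cd244a (70.6 RPKM), Ly9 (69.5), Sh2d1a (63.5) and Slamf7 (63.2) followed, and neighbours among these 4 overlapped. Sh2d1b1 (42.5), Cd84 (14.5), Slamf6 (0.698) and Sh2d1b2 (0.511) came after, the last pair overlapping. In WT cultures Cd244a (85.1), Slamf7 (69.2), Ly9 (61.5), Sh2d1b1 (44.45) and Sh2d1a (42.8) overlapped with their neighbours in that order, ahead of Cd84 (17.1), Sh2d1b2 (4.07) and Slamf6 (0). Sh2d1a was second to Cd48 in all 3 sorted libraries, at 177, 153 and 150.2 RPKM.

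Of the summed RPKM of the 6 receptor and ligand genes, Cd48 took 30.6 to 38.9% in Id2-null and 34.4 to 37.2% in WT cultures. It took 44.6, 49.8 and 60.0% in Immature, M1 and M2. That sum was 288 to 373 RPKM in Id2-null and 303 to 400.0 RPKM in WT cultures, against 605 to 943 RPKM in sorted libraries. Cd84 took at most 8.47% and Slamf6 at most 2.54%, both in Immature.

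ID2 acts by binding E proteins, which otherwise bind the E-box motifs CAGCTG and CAGGTG. RefSeq promoters (GRCm38.p6, 250 bases before to 50 after the listed start) were matched for 7 of 9 members. Searched on both strands, CAGCTG or CAGGTG occurred in 1 of the 7, as CAGCTG at -3 from the listed start of Slamf7. Either motif occurred in 32.9% of all 32851 promoters (CAGCTG in 16.3%, CAGGTG in 20.2%). The Slamf7 window lies inside the listed span of that gene (171632403 to 171653037) and not at its outer end. The promoters of Slamf6, the member with the widest range, and of Slamf7 are shown, with that match in capitals. No match says only that these letters are not in this window.
Slamf6, chr1:171917212-171917511, plus strand: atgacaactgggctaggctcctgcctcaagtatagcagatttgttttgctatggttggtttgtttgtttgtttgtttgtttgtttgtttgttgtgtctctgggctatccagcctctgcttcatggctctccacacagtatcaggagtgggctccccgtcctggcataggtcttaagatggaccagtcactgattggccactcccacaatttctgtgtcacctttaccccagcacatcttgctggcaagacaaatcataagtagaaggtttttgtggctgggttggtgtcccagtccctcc
Slamf7, chr1:171648950-171649249, minus strand: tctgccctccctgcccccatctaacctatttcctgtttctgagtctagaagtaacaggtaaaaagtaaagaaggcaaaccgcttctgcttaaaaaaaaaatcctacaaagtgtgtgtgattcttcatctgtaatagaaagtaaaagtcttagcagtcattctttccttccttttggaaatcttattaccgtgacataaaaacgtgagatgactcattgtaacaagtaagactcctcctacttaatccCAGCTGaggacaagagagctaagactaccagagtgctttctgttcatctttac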

How the data were processed

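Raw counts for each Entrez gene were deposited, with the gene's length, per the file headers. The authors handled reads with Subread and featureCounts against GRCm38 (mm10), and limma was also used, per the submitters' processing notes. Not given in the sources used here: versions, strand setting and the treatment of reads with several matches. All columns were used. The genotypes were compared with edgeR 4.0.16 in R 4.3.3 (filterByExpr with a minimum count of 10, TMM, robust quasi-likelihood, genotype alone, Benjamini-Hochberg over 11022 genes, called at adjusted p under 0.05), with a common biological coefficient of variation of 0.209. DESeq2 1.42.0 and limma 3.58.1 (voom) were alternatives. The fits were tested on simulated counts. Sorted libraries were given with exact 95% Poisson intervals (scipy 1.17.1), which leave out all error but that of counting, as reads had no molecular identifiers. RPKM used TMM-scaled totals and deposited lengths.

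Replicate numbers are shared by the genotypes. Deviations from the group means correlated between same-numbered libraries at 0.352, 0.241 and 0.417, and between unlike numbers at -0.397 to 0.189. The numbers may thus pair the libraries, from the data and not from a label. Between numbers 1 and 2 the values were 0.136 and 0.189, so their pairing is less clear. The main fit used genotype alone, since the labels do not say what a number stands for, and the block was an alternative. The members and all lists were chosen with earlier results of these data known. Named genes were all members, the called or else the 2 most abundant genes of each list, Slamf1, Slamf8, Slamf9, Cd2, Id2, 4 sex-linked genes and the 3 genes most like the member with the widest range. Plcg1, Plcg2, Arhgef7 and the marker genes given by name were chosen after their values were seen. Other settings tried were library sizes alone, no filter, all 9 libraries, the replicate block and libraries left out. Leaving out replicate 3 of both genotypes was chosen after seeing the data.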

Additional observations from a re-analysis of the deposited data

How the results depend on the processing

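With the replicate block 836 of all 11022 genes tested were called (377 without it), and with DESeq2 580. No filter called 477 of 16350 genes, and the fit without replicate 3 of both genotypes 1066 of 11070. With 1 library left out 121 to 662 were called, of 11192 to 11243 genes tested. Members called stayed at 0 except for 1, Slamf6, with no expression filter, and were 0 to 0 with 1 library left out. Slamf6 entered the unfiltered fit only through its Id2-null counts. Of the genes that act with SAP and EAT-2, DESeq2 called 1, no filter 1, the block 3, the fit without replicate 3 of both genotypes 4, and fits with 1 library left out 0 to 2. Beside these, the block changed the calls of the named T cell markers Cd3d and Cd3e, and no other call of a named gene that was tested. Signs turned for Ly9 (-0.018 without WT replicate 3, range with 1 library left out -0.018 to 0.32), Cd48 (0.047 without Id2-null replicate 3, -0.23 to 0.047) and Sh2d1b1 (0.00096 without WT replicate 1, -0.14 to 0.00096). The cause was not tested. Slamf7, Cd244a, Cd84 and Sh2d1a kept sign and call in all 13 alternatives, at -0.26 to -0.06, -0.36 to -0.19, -0.39 to -0.16 and 0.42 to 0.71. With library sizes alone 1 member in place of 2 passed 2-fold for M2 over Immature. Members apart between WT cultures and sorted libraries were 6 to 7 with 1 WT culture left out, 7 without Immature and 8 without M2. The Sh2d1b2 share of EAT-2 per base was 1.25% in Id2-null and 8.43% in WT cultures, and as counts with 1 library left out 0 to 0.538% and 2.17 to 2.88%. The low counts of Slamf6 and Sh2d1b2 in cultures limit those values.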

Other observations

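The SLAM gene cluster on chromosome 1 is flanked by genes of unrelated function, of which 8 were read from the same fit. In edgeR 0 of the 4 that passed the low-count filter were called at an adjusted p under 0.05, against 3.42% of all genes tested. An unadjusted p under 0.05 was found in 0, against 14.6%. DESeq2 and limma voom also called 0, against 5.26% and 2.93%. Arhgap30, which encodes a GTPase-activating protein, averaged 406 ± 33.3 CPM in Id2-null cultures, against 375 ± 27.9 CPM in WT cultures (SD, n = 3 each), with a log2 fold change of 0.12 (edgeR adjusted p = 0.742). Copa, which encodes a coat protein of Golgi vesicles, averaged 294 ± 21.9 CPM in Id2-null cultures, against 318 ± 15.5 CPM in WT cultures, at -0.11 (edgeR adjusted p = 0.738). Copa had 562 to 579 CPM in the sorted libraries, above all 6 cultures. Nhlh1, Vangl2, Itln1 and F11r had at most 7 counts in any library.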
